A study of Mus musculus with 4 samples.

Results

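A set of 37 genes whose proteins fold, modify or destroy new proteins in the endoplasmic reticulum (ER) was followed through RNA sequencing of mouse migrasomes and cytosol. The genes were taken by symbol from the 49568 symbols of the deposited table, and all 37 were found. The rule names the genes by symbol and uses no measured value, but the genes were proposed with earlier results of these data known. They were ordered by role: 2 lectin chaperones, 10 disulfide isomerases and oxidases, 4 stress-inducible folding factors, 7 collagen modifiers, 5 subunits of the signal peptidase and 9 factors of ER-associated degradation.

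A moving cell trails thin retraction fibres, on which sizeable vesicles, the migrasomes, swell up, and the title of the series concerns the transfer of mRNA by them to other cells. Purified migrasomes gave 2 libraries of total RNA and cytosol gave 2. The labels name no genotype, strain, treatment or time for either group, and the sources used here do not give the cell type, how the migrasomes were purified or whether the cytosol was freed of membranes. The labels do not say either whether replicates came from separate cultures, so p-values here rest only on how far these libraries vary, and that variation may be technical.

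Proteins bound for secretion or for membranes are threaded into the ER while they are made, so their mRNAs are translated on ribosomes attached to the ER surface. The signal peptidase cuts off the leading signal peptide, lectin chaperones hold glycosylated chains, and protein disulfide isomerases form and rearrange disulfide bonds with oxidising power passed on from ERO1 oxidases. Procollagen needs prolyl and lysyl hydroxylases and the chaperone HSP47. Chains that fail to fold are recognised by mannosidase-like EDEM proteins and lectins, moved back through the membrane and ubiquitinated by the HRD1 ligase, then pulled out by the p97 ATPase and degraded by the proteasome in the cytosol.

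Some features of the coding sequences are shown because the proteins' place of work is written in them. The first is the signal or membrane segment: codons with T at the middle position encode hydrophobic residues such as leucine, valine, isoleucine and phenylalanine. Each sequence below is the start of the coding sequence of a GENCODE M21 transcript on GRCm38, read 5′ to 3′ from the start codon. The capitals mark the 12 codons, within the first 40, with the most T at the middle position.
Calr: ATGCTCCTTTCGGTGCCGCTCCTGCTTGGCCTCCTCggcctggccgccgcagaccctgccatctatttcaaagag
Serpinh1: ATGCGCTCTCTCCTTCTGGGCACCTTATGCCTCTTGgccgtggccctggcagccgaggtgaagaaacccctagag
Plod1: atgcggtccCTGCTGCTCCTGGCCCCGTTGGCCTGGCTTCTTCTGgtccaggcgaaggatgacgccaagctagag
Spcs1: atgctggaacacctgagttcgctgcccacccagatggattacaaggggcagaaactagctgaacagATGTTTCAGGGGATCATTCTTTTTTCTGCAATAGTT
Edem1: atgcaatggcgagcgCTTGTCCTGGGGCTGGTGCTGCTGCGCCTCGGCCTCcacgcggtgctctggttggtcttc
Vcp: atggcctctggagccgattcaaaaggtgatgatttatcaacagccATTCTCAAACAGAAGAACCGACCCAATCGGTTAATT
The marked stretch of Calr holds T at the middle position in 9 of 12 codons, that of Serpinh1 in 7, and those of Plod1 and Spcs1 in 8. In Spcs1, a small membrane protein, the stretch begins at codon 23 rather than near the start. Vcp, which encodes the cytosolic p97 ATPase and is not among the 37 genes, is shown for contrast and holds 4. The count does not separate every ER gene from Vcp: the member Spcs2, not shown, holds 2.

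The second feature is the end of the coding sequence, where many soluble ER proteins carry a retrieval signal that brings them back from the Golgi. The last 45 bases are shown, stop codon included, with the 4 codons before the stop in capitals.
Calr: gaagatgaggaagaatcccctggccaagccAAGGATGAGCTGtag
P4hb: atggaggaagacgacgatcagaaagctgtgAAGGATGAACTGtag
Pdia6: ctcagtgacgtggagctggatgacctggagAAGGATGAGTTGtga
Serpinh1: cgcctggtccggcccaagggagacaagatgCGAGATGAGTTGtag
Manf: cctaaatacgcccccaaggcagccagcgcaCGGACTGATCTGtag
Edem1: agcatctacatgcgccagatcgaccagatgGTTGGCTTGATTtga
Edem2: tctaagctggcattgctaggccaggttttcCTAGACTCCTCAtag
Edem3: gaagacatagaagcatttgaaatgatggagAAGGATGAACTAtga
Calr, P4hb, Pdia6, Serpinh1 and Edem3 hold the pattern GANGAN followed by a leucine codon, which spells the last residues of the classical retrieval signal. Manf, Edem1 and Edem2 do not hold it, which does not show that their proteins lack a retrieval signal of another form.

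The 37 genes were low in the migrasome libraries as a group. Values are the authors' read counts after division by a size factor for each library, called normalised values here. Differences are given as migrasome minus cytosol after taking log2(value + 1), with their standard error (SE). Of the 35 members with enough reads to test, 31 fell in migrasome and 0 rose at a limma adjusted p under 0.05, and the 4 that did not pass were Spcs1, Sec11c, Edem1 and Edem2. Over all 10860 genes tested, 17.7% were called lower and 8.68% higher. The members' median difference was -1.71, and the median of all tested genes was -0.0043. All 35 differences were negative, from -2.30 (Plod1) to -0.28 (Sec11c). Summed over the 37 genes, the reads made up 1.24% and 1.12% of the cytosol libraries and 0.243% and 0.331% of the migrasome libraries. In bulk RNA of this kind, fewer ER-attached mRNA molecules carried into migrasomes and a larger amount of other RNA there cannot be told apart.

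Both migrasome values lay below both cytosol values for 33 of the 35 members, against 36.3% of all tested genes, and the groups overlapped for Spcs1 and Edem1. A call together with a difference of -1 or lower was made for 30 members and for 14.3% of all tested genes. With 2 libraries against 2, an exact permutation test of a single gene allows no p smaller than 0.33, and the calls depend on limma pooling the spread across genes. The members' SE ran from 0.20 to 0.43, and the highest limma adjusted p among the 31 calls was 0.0157.

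The cytosol libraries held 7529136 and 8608369 reads and the migrasome libraries 5228713 and 5171092. The limit that a count of 0 allows, 3 reads, equals 2.33 and 2.06 normalised units in cytosol and 4.24 and 3.95 in migrasome, a floor that covers counting error only. Scaling matters to the background: giving each library the same total put the median of all genes at -0.27 and changed the calls from 1919 lower and 943 higher to 2522 and 322, and quantile normalisation put it at 0.11 and gave 1403 and 1194. All 35 tested members kept a negative difference under both.

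**Figure D1:**
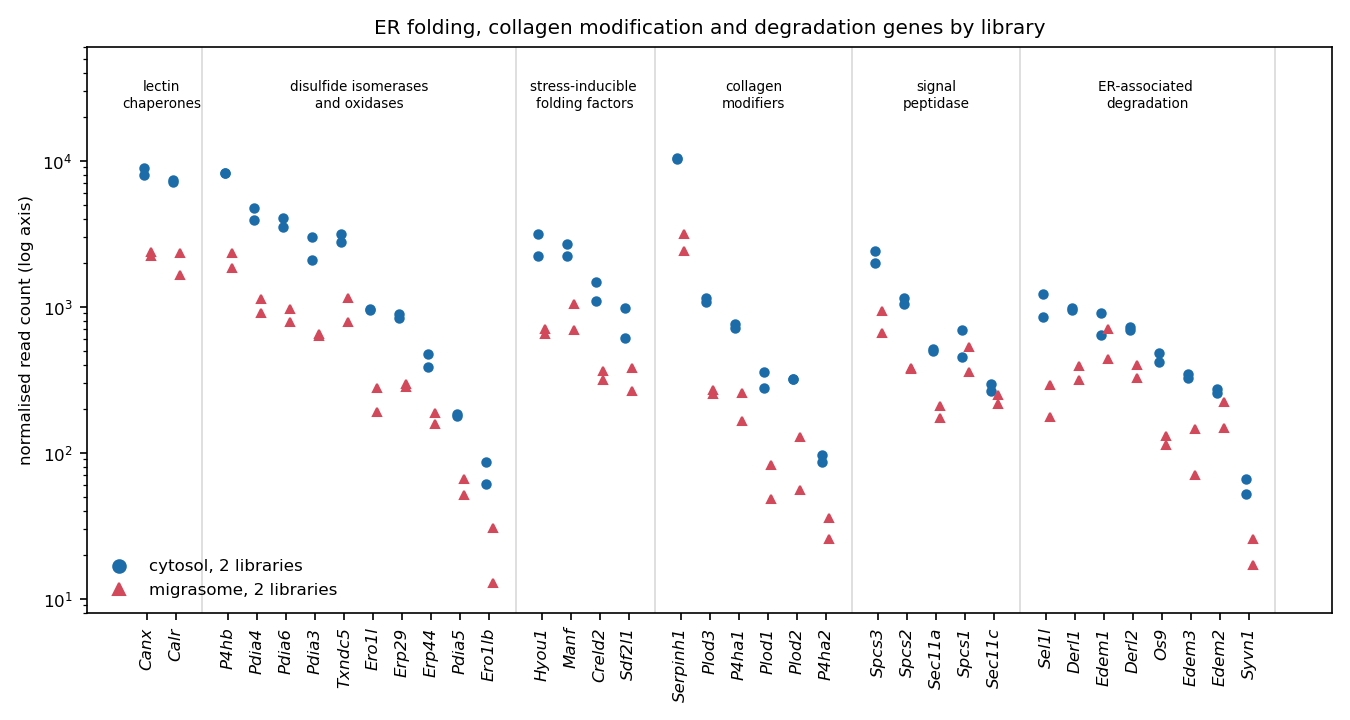
Normalised value of the 35 tested genes in each of the 4 libraries (log axis), grouped by role, with circles for cytosol and triangles for migrasome. P4ha3 and Derl3, at or under the floor, are not drawn. The migrasome points lie below the cytosol points for 33 of 35 tested genes, and Spcs1 and Edem1 are the 2 whose groups overlap.

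The lectin chaperone genes fell by nearly the same amount. Calr encodes calreticulin, the soluble lectin chaperone and calcium store, and lies on GRCm38 at chr8:84841850-84846934 (minus strand). It measured 7322 and 7160 in cytosol and 1636 and 2324 in migrasome. Both migrasome libraries were far below both cytosol libraries, and the difference was -1.89 ± 0.23 (SE, n = 2 per group, limma adjusted p = 0.00065). Canx encodes calnexin, the membrane-anchored partner, and measured 8857 and 7932 in cytosol and 2212 and 2369 in migrasome, a difference of -1.87 ± 0.21 (limma adjusted p = 0.00055). The groups were again well apart. The ratio of Canx to Calr was 1.21 and 1.11 within the cytosol libraries and 1.35 and 1.02 within the migrasome libraries, so their balance overlapped between the groups.

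All 10 disulfide isomerase and oxidase genes fell, with a median of -1.89. P4hb encodes PDI itself, which also serves as the second subunit of collagen prolyl 4-hydroxylase, and lies at chr11:120560298-120573253 (minus strand). It measured 8268 and 8266 in cytosol, which differ little, and 1838 and 2327 in migrasome. The difference was -2.0 ± 0.22 (limma adjusted p = 0.00054). Among the isomerases, Pdia6 fell most, from 4042 and 3505 to 781 and 957, a difference of -2.12 ± 0.21 (limma adjusted p = 0.00046). Pdia4, another isomerase with several thioredoxin domains, fell by 2.09, and Pdia3, which works on glycoproteins held by the lectin chaperones, fell by 1.96. Smaller falls were measured for Pdia5 (-1.62), Txndc5 (-1.63) and Erp29 (-1.58), the last of which encodes a thioredoxin-fold protein without the usual redox cysteine pair. Erp44, whose protein retains ERO1 and other clients in the early secretory pathway, moved least in this role. It measured 386 and 475 in cytosol and 157 and 188 in migrasome, a difference of -1.31 ± 0.23 (limma adjusted p = 0.0029), with no overlap.

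The oxidase Ero1l, which recharges PDI, measured 963 and 944 in cytosol and 190 and 278 in migrasome, a difference of -2.05 ± 0.23 (limma adjusted p = 0.00055). Its paralog Ero1lb was rare. It measured 86.1 and 61.0 in cytosol and 12.7 and 30.3 in migrasome, the last 2 from 9 and 23 reads, and its SE of 0.43 was the largest among the members. Ero1lb passed in the comparison of all 4 libraries (-1.83, limma adjusted p = 0.0133) and not without cytosol replicate 1, where limma gave an adjusted p of 0.070. Exons of Erp29 share 2210 bases with those of Naa25 on the other strand. Naa25 measured 491 and 540 in cytosol and 344 and 345 in migrasome. No source used here gives the strand setting of the authors' counting, so reads of this overlap cannot be assigned.

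The 4 stress-inducible folding factor genes fell, with a median of -1.71. Hyou1, an HSP70-like chaperone and exchange factor of BiP, measured 3160 and 2228 in cytosol and 645 and 700 in migrasome, a difference of -1.98 ± 0.23 (limma adjusted p = 0.00055). Creld2, a secreted and ER-resident protein induced by ER stress, measured 1467 and 1086 in cytosol and 315 and 363 in migrasome (-1.90). Manf, a neurotrophic and ER-protective factor, measured 2684 and 2237 in cytosol and 694 and 1044 in migrasome (-1.52). For all 3 genes the libraries of the groups were clearly apart. Sdf2l1, which keeps BiP's client cycle going, measured 985 and 614 in cytosol and 380 and 266 in migrasome. Its cytosol libraries differed by 0.68 on the log2 scale, the widest gap between cytosol replicates among the members. The difference was -1.29 ± 0.28 (limma adjusted p = 0.0088), and without cytosol replicate 1 it was -0.95 with a limma adjusted p of 0.068.

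All 6 tested collagen modifier genes fell, with a median of -1.91, and in the cytosol libraries they were the members whose summed level differed least between replicates (12872 and 12879 normalised units, against 2946 and 3932 in migrasome). Serpinh1 encodes HSP47, the chaperone of procollagen, and lies at chr7:99345376-99353239 (minus strand). It was the most abundant member per kilobase of exon in both groups. Its values were 10206 and 10405 in cytosol and 2399 and 3160 in migrasome, a difference of -1.90 ± 0.23 (limma adjusted p = 0.00059). The migrasome libraries held less than every cytosol library by a wide margin.

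The lysyl hydroxylase genes held the largest fall of all members. Plod1 measured 355 and 278 in cytosol and 48.1 and 82.9 in migrasome, a difference of -2.30 ± 0.30 (limma adjusted p = 0.00075), and its mean was 4.84-fold lower in migrasome. Plod3, whose protein also transfers sugars to hydroxylysine, measured 1137 and 1079 in cytosol and 252 and 268 in migrasome, a difference of -2.09 ± 0.20 (limma adjusted p = 0.00042, the smallest among the members). Plod2, the hydroxylase of the collagen ends, measured 318 and 318 in cytosol and 55.2 and 128 in migrasome (-1.91). The migrasome libraries of Plod2 differed by 1.20 on the log2 scale, the widest replicate gap among the members. Exons of Plod3 share 529 bases with Znhit1 on the other strand, and Znhit1 measured 161 and 176 in cytosol and 208 and 272 in migrasome.

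The catalytic subunits of prolyl 4-hydroxylase, which make hydroxyproline with P4hb, were 1 abundant, 1 rare and 1 nearly absent gene. P4ha1 measured 758 and 711 in cytosol and 165 and 257 in migrasome (-1.83, limma adjusted p = 0.00086). P4ha2 measured 96.2 and 85.7 in cytosol and 25.5 and 35.5 in migrasome (-1.56, limma adjusted p = 0.0059), and without cytosol replicate 1 limma gave an adjusted p of 0.053. P4ha3 had 2 reads in each cytosol library and 1 in each migrasome library, all under the floor, and was not tested.

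Of the 5 signal peptidase genes, Spcs2, Spcs3 and Sec11a fell, and Spcs1 and Sec11c did not pass. Spcs3, an accessory subunit needed for cleavage, measured 2404 and 1980 in cytosol and 655 and 929 in migrasome (-1.48 ± 0.23, limma adjusted p = 0.0018). Spcs2 measured 1038 and 1146 in cytosol and 375 and 380 in migrasome (-1.53 ± 0.20, limma adjusted p = 0.00073). Sec11a, a catalytic subunit, measured 513 and 494 in cytosol and 209 and 172 in migrasome (-1.40 ± 0.22, limma adjusted p = 0.0016). These 3 genes showed no overlap.

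Sec11c encodes the other catalytic subunit and measured 296 and 266 in cytosol and 247 and 216 in migrasome. Its migrasome libraries were lower but close, with a difference of -0.28 ± 0.22 (95% interval -0.77 to 0.21, limma adjusted p = 0.35). Spcs1, a small accessory subunit at chr14:30999826-31001672 (minus strand), measured 455 and 687 in cytosol and 355 and 526 in migrasome. The groups overlapped, and the difference was -0.37 ± 0.27 (95% interval -0.97 to 0.23, limma adjusted p = 0.32). Neither interval reaches the members' median of -1.71, which includes both genes, and the distance from it was not tested. The intervals of Edem1, Edem2 and Derl2 (-1.44 to -0.51 for Derl2) do not reach it either. Exons of Spcs1 share 252 bases with Glt8d1 on the other strand, which measured 137 and 134 in cytosol and 32.5 and 34.2 in migrasome, so this neighbour was low in migrasome. Without migrasome replicate 2, Spcs1 passed at -0.65 (limma adjusted p = 0.041).

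Of the 8 tested genes of ER-associated degradation, 6 fell and 2 did not pass, with a median of -1.45. Sel1l, the scaffold of the HRD1 ligase, fell most, from 1213 and 849 in cytosol to 175 and 291 in migrasome (-2.16 ± 0.28, limma adjusted p = 0.00075). Os9, a lectin that hands glycoproteins to that ligase, measured 479 and 417 in cytosol and 113 and 129 in migrasome (-1.88 ± 0.22, limma adjusted p = 0.00055). Syvn1, which encodes HRD1 itself, was rare, at 65.9 and 52.1 in cytosol and 25.5 and 17.1 in migrasome, the last 2 from 18 and 13 reads. Exons of Syvn1 share 91 bases with Mrpl49 on the other strand. Mrpl49 was far more abundant, at 369 and 440 in cytosol and 410 and 462 in migrasome. The Syvn1 difference of -1.45 ± 0.35 (limma adjusted p = 0.0157) was the call nearest to the threshold. It was lost under quantile normalisation (adjusted p = 0.066 in limma) and without either cytosol library (adjusted p = 0.16 and 0.057 in limma).

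The derlins are membrane proteins of the channel through which failed chains leave the ER. Derl1 measured 979 and 948 in cytosol and 317 and 392 in migrasome (-1.45 ± 0.21, limma adjusted p = 0.0012). Derl2 measured 687 and 720 in cytosol and 322 and 396 in migrasome, a smaller difference of -0.97 ± 0.21 (limma adjusted p = 0.0088), which did not pass without cytosol replicate 2 (adjusted p = 0.064 in limma). Both genes had clearly separate groups. Derl2 shares 231 exon bases with Mis12 on the other strand, which measured 475 and 493 in cytosol and 272 and 362 in migrasome. Derl3 had 0 reads in all 4 libraries.

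The EDEM proteins trim or recognise mannose on failed glycoproteins, and of their 3 genes 1 fell and 2 did not pass, a difference between them that was not tested in the fit. Edem3, at chr1:151755371-151822051 (plus strand), measured 346 and 326 in cytosol and 70.7 and 146 in migrasome (-1.71 ± 0.32, limma adjusted p = 0.0045). Edem1, at chr6:108828641-108859356 (plus strand), measured 900 and 643 in cytosol and 441 and 707 in migrasome. These groups overlapped, and the difference was -0.44 ± 0.27 (95% interval -1.05 to 0.16, limma adjusted p = 0.24). Edem2, at chr2:155701677-155729475 (minus strand), measured 272 and 254 in cytosol and 147 and 221 in migrasome, without overlap (-0.54 ± 0.25, 95% interval -1.11 to 0.023, limma adjusted p = 0.13). In both genes migrasome replicate 1 was the low library, and without migrasome replicate 2 limma gave adjusted p = 0.012 for Edem1 (-0.78) and 0.0092 for Edem2 (-0.83).

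**Figure D2:**
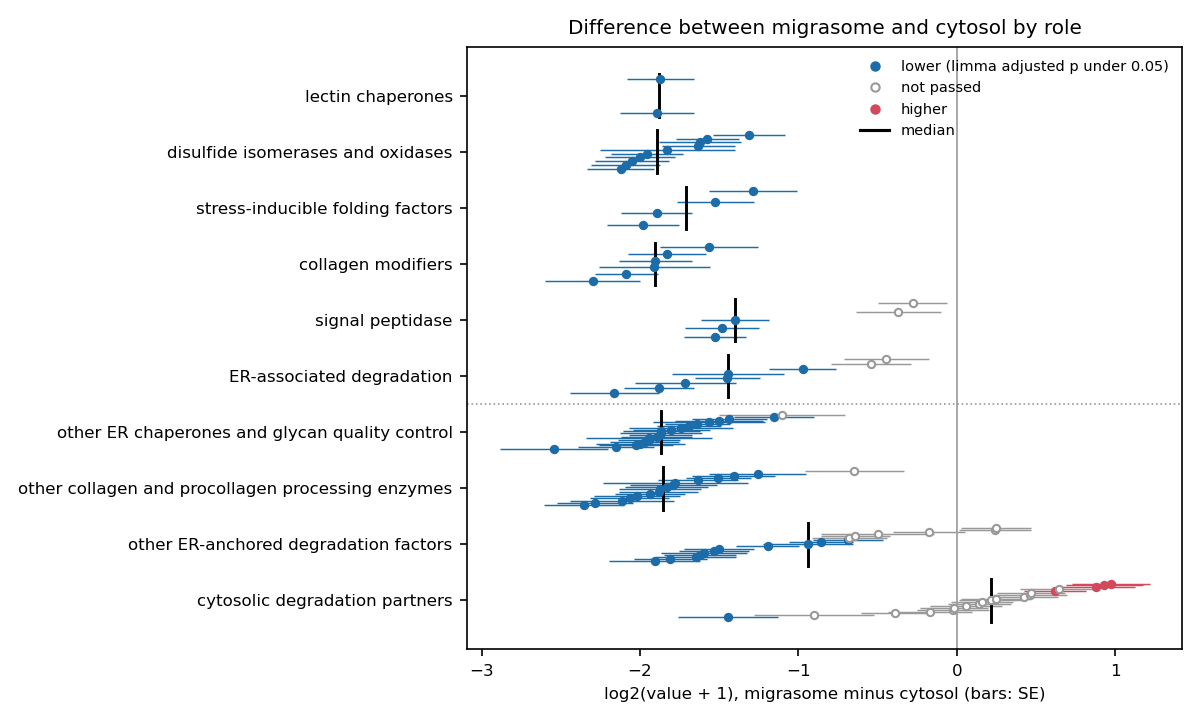
Difference between migrasome and cytosol on the log2(value + 1) scale with its SE (horizontal bars), 1 point per tested gene, by role of the 37 genes above the dotted line and by 4 lists of other pathway genes below it. Filled points passed at a limma adjusted p under 0.05, and vertical ticks are medians, from -1.91 in collagen modifiers to 0.21 in cytosolic degradation partners.

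Paralogs were compared within each library, which removes the library's scaling. The ratio of Sec11c to Sec11a was 0.578 and 0.539 in cytosol and 1.18 and 1.25 in migrasome, a shift of 1.12 on the log2 scale in a ratio of reads that is not corrected for length. The ratio of Edem3 to Edem1 was 0.384 and 0.507 in cytosol and 0.160 and 0.207 in migrasome, a shift of -1.28. Derl2 to Derl1 went from 0.701 and 0.760 to 1.02 and 1.01. The ratios of P4ha2 to P4ha1 and of Plod2 to Plod1 were also higher in both migrasome libraries than in both cytosol libraries, by 0.24 and 0.39 on the log2 scale. For these 5 pairs the exact two-sided permutation p was 0.33, the smallest that 2 against 2 libraries allow. The groups overlapped for Ero1lb to Ero1l, Plod3 to Plod1, Edem2 to Edem1 and Canx to Calr, which makes 9 pairs in all. The pairs with P4ha3 and Derl3 were left out, as those genes were at or under the floor.

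**Figure D3:**
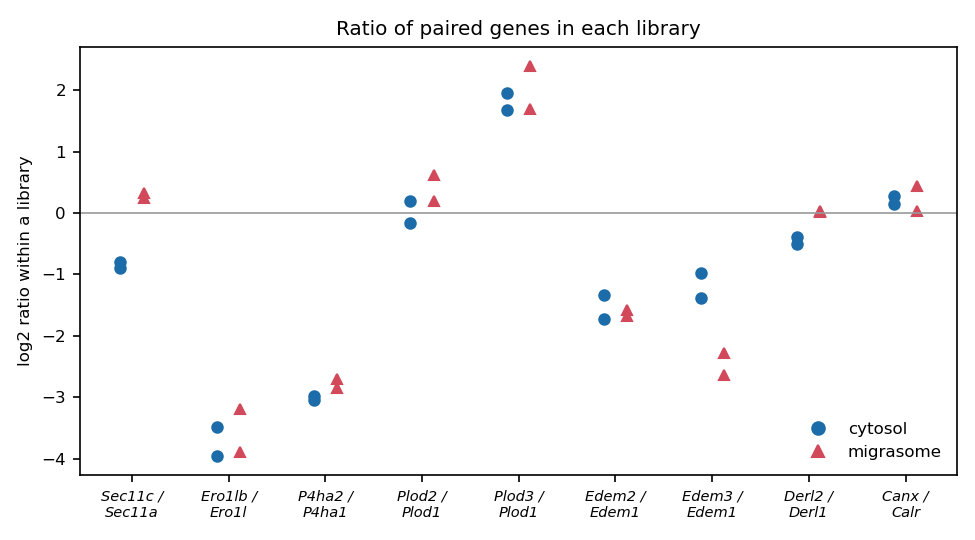
Within-library ratio of the normalised values of paralogs on a log2 scale, 1 point per library and coloured by group. Sec11c to Sec11a and Derl2 to Derl1 are higher in both migrasome libraries, Edem3 to Edem1 is lower, and Edem2 to Edem1 and Canx to Calr overlap.

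Levels of different genes were compared roughly per kilobase of exon, with the GENCODE M21 exons of all transcripts of a gene merged. That length can far exceed a single mRNA (9060 bases for the 262 codons of Erp29), so the order depends on the annotation. The mean level in cytosol was highest for Serpinh1 (4218), then P4hb (2890), Calr (2514), Pdia4 (1806) and Canx (1789). In migrasome the first 3 were the same genes in the same order, at 1138, 728 and 688. The neighbours Pdia4 and Canx overlapped in cytosol (1980 and 1632 against 1887 and 1690), and P4hb and Calr overlapped in migrasome (643 and 813 against 568 and 807). The genes that did not pass moved up in the order of the 37: Spcs1 from rank 14 to 7, Edem1 from 23 to 17, Edem2 from 27 to 19 and Sec11c from 32 to 26. This restates their smaller differences and is not a separate result.

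Other genes of the same pathways were listed by function and compared in the same fit. Of 21 other ER chaperones and glycan quality control factors, 20 were tested, 19 fell and 0 rose, with a median of -1.87. Hspa5, which encodes the HSP70 chaperone BiP, measured 21290 and 13138 in cytosol and 3780 and 4639 in migrasome (-2.0 ± 0.28, limma adjusted p = 0.0010). Hsp90b1, the ER member of the HSP90 family, differed by -2.03 ± 0.23. Ppib, a prolyl isomerase that acts on collagen, differed by -1.64 ± 0.20, and Dnajc10, a disulfide reductase with a J domain, by -1.50 ± 0.28. These 4 are the most abundant of the list. Tmx4, which did not pass, differed by -1.10 (limma adjusted p = 0.064), and Pdia2 had 0 reads.

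Of 19 other collagen and procollagen processing enzymes, 16 were tested, 15 fell and 0 rose, with a median of -1.85. Colgalt1, which adds galactose to hydroxylysine, measured 1232 and 1164 in cytosol and 198 and 303 in migrasome (-2.29 ± 0.24, limma adjusted p = 0.00054). Enzymes and helpers that act after secretion fell too. Adamts2, which removes the procollagen N-propeptide, differed by -1.64, Pcolce, an enhancer of C-propeptide removal, by -1.51, and the cross-linking oxidase Loxl1 by -1.26, a call that was lost in limma without a trend (adjusted p = 0.054). Tmem38b, an ER potassium channel subunit in the list because its loss impairs collagen production, did not pass (-0.65).

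A further list holds other degradation factors anchored in the ER membrane or lumen. The test was run on 17, of which 11 fell, 0 rose and 6 stayed short of the threshold, and their median was -0.94. Tram1, a membrane protein of the translocation site, measured 1833 and 1789 in cytosol and 919 and 1087 in migrasome (-0.86 ± 0.20, limma adjusted p = 0.013). This call was lost in limma without either cytosol library (adjusted p = 0.10 and 0.091). Ube2j1, a tail-anchored ubiquitin-conjugating enzyme of this pathway, measured 683 and 870 in cytosol and 790 and 1048 in migrasome, with overlap (0.24 ± 0.23, limma adjusted p = 0.44). Ubxn4, which recruits p97 to the ER, measured 618 and 562 in cytosol and 816 and 601 in migrasome, with overlap (0.25 ± 0.22, limma adjusted p = 0.41). With the same total in each library the differences of these 2 genes were -0.033 and -0.024.

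The last list holds cytosolic partners that finish ER-associated degradation. Of 20 listed, 19 were tested, 4 rose (Vcp, Ngly1, Bag6 and Ubqln1), 1 fell and 14 did not pass, with a median of 0.21. Over all genes tested, 8.68% were called higher and 17.7% lower. Reads of the 20 partners made up 0.247% and 0.231% of the cytosol libraries and 0.303% and 0.2498% of the migrasome libraries. The second migrasome library was thus close to the first cytosol library. Vcp, the p97 ATPase, measured 3098 and 2876 in cytosol and 6815 and 4404 in migrasome (0.88 ± 0.25, limma adjusted p = 0.030), and Ubqln1, a shuttle of ubiquitinated clients to the proteasome, differed by 0.62 ± 0.20 (limma adjusted p = 0.042). Ngly1 differed by 0.97 ± 0.24 (limma adjusted p = 0.018) and Bag6 by 0.93 ± 0.24 (limma adjusted p = 0.021). Their calls changed under 3 and 4 alternatives. The calls of Vcp and Ubqln1 were less stable. Both held on recovered reads in edgeR (adjusted p = 0.023 and 0.046) and DESeq2 (adjusted p = 0.0029 and 0.022). That of Vcp was lost in limma with the same total per library (0.60, adjusted p = 0.070), under quantile normalisation (0.35, adjusted p = 0.19), without a filter (adjusted p = 0.079), without a trend (adjusted p = 0.071) and without cytosol replicate 1 (adjusted p = 0.12), cytosol replicate 2 (adjusted p = 0.18) or migrasome replicate 1 (adjusted p = 0.055). That of Ubqln1 was lost in limma under the first 6 of these alternatives, with adjusted p from 0.079 to 0.29. Ube4a, a ubiquitin chain elongation factor, fell from 266 and 175 to 60.8 and 101 (-1.45 ± 0.32, limma adjusted p = 0.0098, and 0.073 without cytosol replicate 1). With the same total in each library, 0 partners rose, 2 fell and the list's median was -0.060. The difference between this list and the 37 genes was not tested.

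The coding sequences of the members were compared with their differences as a description. T at the middle position in 7 or more of 12 codons was found in 27 of the 35 tested members (77.1%) and in 17.8% of 9969 tested genes with a coding sequence, a limit chosen after the values were seen. Of those 27 members 24 fell (median -1.83), and of the other 8 members 7 fell (median -1.53). Over all genes, 48% of the 1775 that reach the limit fell (median -0.89), against 11.5% of the rest (median 0.076). Edem1 and Spcs1, which did not pass, hold 9 and 8, so the count does not single them out. Spcs2 holds only 2 and fell (-1.53).

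The ending shown above was searched as GANGAN and a leucine codon (CTN, TTA or TTG) directly before the stop. It stood in 14 members: Calr, P4hb, Pdia3, Pdia4, Pdia5, Pdia6, Txndc5, Erp29, Erp44, Hyou1, Sdf2l1, Creld2, Serpinh1 and Edem3. All 14 fell, from -2.12 (Pdia6) to -1.29 (Sdf2l1), with a median of -1.89. Of the other 21 tested members 17 fell, with a median of -1.53. In all, 63 of 9969 tested genes (0.632%) hold the ending, of which 46 fell, with a median of -1.62. These 63 include the 14 members and genes of the pathway lists, such as Hspa5 and Hsp90b1, so they are not a separate background. All 4 members that did not pass lack this pattern, as does Manf, whose sequence ends in other letters. A retrieval signal of another form would be missed by the search.

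Longer coding sequences went with larger falls among the members. Over the 35 tested members, Pearson's r of log2 codons with the difference was -0.53 and Spearman's rho -0.56. Over the 88 tested members and listed genes whose proteins enter or sit in the ER, the values were -0.36 and -0.41, and over all 9969 genes -0.093 and -0.11. The points are genes of the same 4 libraries and not independent replicates. Length also goes with role: the 5 signal peptidase genes have 102 to 226 codons and a median difference of -1.40. Length and role were not separated here. Of 10 members under 300 codons 8 fell (median -1.42), and of 25 longer ones 23 fell (median -1.89), a limit chosen after the values were seen. The shortest member is Spcs1, with 102 codons. Exon length merged over all annotated transcripts, which is not mRNA length, gave an r of -0.040.

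**Figure D4:**
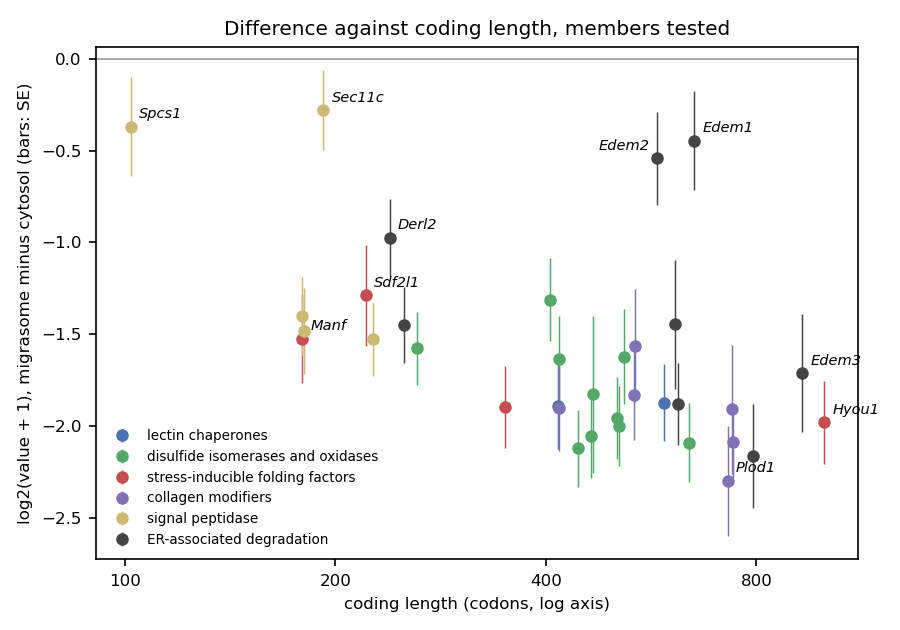
Coding length in codons (log axis) against the log2(value + 1) difference between migrasome and cytosol for the 35 tested members, coloured by role, with the SE as vertical bars. Longer members tend to lie lower (r = -0.53), and Spcs1, Sec11c, Edem1 and Edem2 lie nearest to 0.

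Several of the genes are known targets of the unfolded protein response, which reads ER stress elements in promoters. RefSeq promoters (GRCm38.p6, 250 bases before to 50 after the start) were matched for 30 members in 34 windows. Hyou1, Manf, Erp29, Plod2, Spcs3, Sec11c and Derl1 were not searched. The element was searched as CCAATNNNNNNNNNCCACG on both strands and was found in 7 of the 30 members (23.3%), against 0.137% of all 27025 genes. The members were chosen with known targets of this response among them, and the excess was not tested. Shown are 51 bases around each match on the gene's strand, with the CCAAT and CCACG parts, or their reverse complements, in capitals.
Calr: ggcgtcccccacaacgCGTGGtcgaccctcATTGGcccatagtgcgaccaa
Canx: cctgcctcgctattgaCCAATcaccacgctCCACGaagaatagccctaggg
Pdia6: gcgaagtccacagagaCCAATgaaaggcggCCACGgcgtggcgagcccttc
Ero1lb: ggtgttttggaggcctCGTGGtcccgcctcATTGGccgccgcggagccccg
Creld2: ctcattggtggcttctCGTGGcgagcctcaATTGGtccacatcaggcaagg
Derl3: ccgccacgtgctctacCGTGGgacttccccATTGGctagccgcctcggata
Syvn1: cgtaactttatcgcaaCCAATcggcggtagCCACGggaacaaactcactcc
They lie on GRCm38.p6 at chr8:84847059-84847109 (minus) for Calr, chr11:50325784-50325834 (minus) for Canx, chr12:17266475-17266525 (plus) for Pdia6, chr13:12565666-12565716 (plus) for Ero1lb, chr15:88819504-88819554 (plus) for Creld2, chr10:75893226-75893276 (plus) for Derl3 and chr19:6046516-6046566 (plus) for Syvn1. The 19-base match begins between 201 (Ero1lb) and 44 (Syvn1) bases before the start. All 6 tested genes with a match fell (median -1.88), and so did 19 of the 22 tested genes without one (median -1.67). The core of another element of this response, TGACGTGG, was in 1 member (Txndc5) and in 0.714% of all genes, searched on both strands. A match is a run of letters and not a shown binding site.

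The members also moved together between replicates. In cytosol, 28 of the 35 tested members were higher in replicate 1 than in replicate 2, against 48.5% of all tested genes, with a median log2 ratio of 0.11. In migrasome, 6 of 35 were higher in replicate 1, against 48.4% of all tested genes, with a median log2 ratio of -0.34. Their part of the reads therefore differed between the migrasome libraries (0.243% and 0.331%), though both stayed below the cytosol libraries. The part of this shared shift in any single difference was not tested.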

How the data were processed

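Gene values of 2 migrasome and 2 cytosol libraries were used, grouped by sample title. For these, GRCm38 is the build in the submitters' processing notes, which list DESeq, HTSeq, STAR, FastQC, Trimmomatic and cutadapt with no version. The authors' deposited signal is a count per gene after division by a size factor for each library, per the labels' tools and the values. Whole reads were recovered for 100% of values (tolerance 0.001). The sources used here give neither annotation nor strand setting. Chi-square over degrees of freedom was 17.6 between the cytosol and 27.9 between the migrasome libraries, well above sampling noise.

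Genes reaching 10 in 2 or more of the 4 libraries were tested on log2(value + 1), a scale that shrinks the changes of rare genes, in R 4.3.3 with limma 3.58.1, its eBayes fitted with a trend, Benjamini-Hochberg adjusted over 10860 genes, threshold 0.05. edgeR 4.0.16 and DESeq2 1.42.0 on recovered reads were alternatives, beside other pseudocounts, filters, scalings, no trend, a replicate block and each library left out. The test was tried on simulated data. Positions and coding sequences are GENCODE M21 (GRCm38), and figures used matplotlib 3.10.9.

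Members and lists were chosen with earlier results of these data known. Named are all 37 members, the 4 most abundant tested genes of each pathway list and genes called against the direction of their list. Some results this rule covers are not reported here. Tmx4, Pdia2, Tmem38b, Ngly1, Bag6 and the neighbours that share exon bases fall outside this rule and were picked with their values known. Listed genes that were not found were not analysed here, and no protein sequence was used.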

Additional observations from a re-analysis of the deposited data

How the results depend on the processing

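Each member was recomputed under 14 alternatives, which gave 488 values: 477 kept direction and side of the threshold, 7 lost a call, 4 gained one and 0 turned direction. Of the 31 members that fell, 26 did so under every alternative run, and leaving out a library left 27 to 34 members lower. Depth limits Ero1lb, Syvn1 and the untested P4ha3 and Derl3. Over all genes, leaving out each library in turn gave 1090 to 2838 lower and 212 to 2061 higher calls. Higher calls numbered 393 without a filter, 322 with the same total per library, 483 without a trend and 1802 with the replicate block. Same-numbered libraries, which make 2 pairs, deviated together by r = 0.23 over 10860 genes. The labels tie the numbers to nothing, so these libraries share only a number. With the block 2621 genes fell, as did 32 members, Edem2 added (adjusted p = 0.048 in limma). Among cytosolic partners, lower calls were 2 with the same total, 2 with the block and 0 to 2 on leaving out a library; higher calls were 1 without a filter, 0 with the same total, 2 under quantile normalisation, 1 without a trend and 0 to 7 on leaving out a library. With the same total per library the median was -1.98 for all members, -2.15 for lectin chaperones, -2.16 for disulfide isomerases and oxidases, -1.98 for stress-inducible factors, -2.14 for other ER chaperones, -1.21 for other ER-anchored factors and -0.060 for cytosolic partners, that is, reversed; this scaling shifts every gene alike within a library. Quantile normalisation put lectin chaperones at -2.38; the cause was not tested. Leaving out a library gave medians of -1.92 to -1.54 for all members, -2.05 to -1.69 for disulfide genes and -1.96 to -1.63 for other ER chaperones. Reversed single genes were Ube2j1 (-0.033), Ubxn4 (-0.024) and Nploc4 (-0.11) with the same total, and Nploc4 (-0.086) under quantile normalisation.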
